A study of Homo sapiens with 12 samples.

Results

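The identity of a pair of human anaplastic thyroid carcinoma lines, KHM-5M and TTA-1, was compared across genes without drug, in the 6 libraries of 12 in the series that received only the vehicle DMSO. The series asks how the ERK inhibitor GDC-0994 acts in a BRAF mutant and a BRAF wild-type line, and the DMSO libraries (3 from each line) show how the lines differ before any drug. KHM-5M is labelled BRAF V600E and was grown in RPMI-1640, and TTA-1 is labelled BRAF wild type and was grown in DMEM. Both media held 10% fetal bovine serum, and both lines stood in 6-well plates with DMSO for 24 h at 37 °C in 5% CO2 before polyadenylated RNA was sequenced. The other 6 libraries received GDC-0994 at 1 µM for 24 h, again 3 from each line. Each genotype is represented by 1 line in its own medium, so that line, genotype and medium cannot be told apart in any difference below. The labels do not say whether the 3 libraries of a line came from separate cultures, so p-values measure a spread between libraries that may be technical. That spread was estimated over all 12 libraries together, the GDC-0994 libraries included.

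Anaplastic thyroid carcinoma is an undifferentiated tumour thought to arise from follicular cells, the thyroid epithelium that takes up iodide and builds hormone on thyroglobulin. It typically loses the follicular program and gains mesenchymal traits such as a fibroblast-like matrix. BRAF V600E is an activated kinase that drives the MEK and ERK cascade, and GDC-0994 blocks ERK at the end of that cascade.

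Levels are given as CPM, counts per gene scaled to a common library size with edgeR's TMM factors. Levels of different genes are compared as FPKM, which also divides by gene length. The exception is the summed CPM of marker lists, in which gene length is not divided out. A gene was called different where edgeR's quasi-likelihood test gave a Benjamini-Hochberg adjusted p below 0.05 and the difference was at least 2-fold. Of 16218 genes tested, 4057 (25.0%) were called higher in KHM-5M and 3069 (18.9%) higher in TTA-1, and the median log2 fold change, KHM-5M over TTA-1, was 0.03. The libraries of the lines did not overlap for 77.8% of the genes tested, so a single gene without overlap is the usual case here. Library totals ran from 15996718 to 17397430 counts. TTA-1 DMSO libraries 1 and 2 lay farther from each other (mean absolute log2 difference 0.312 per gene) than any other DMSO pair of the same line (0.0904 to 0.215). Their deviations followed GC content, with correlations across genes of 0.73 and -0.70. Calls were therefore also made with each library's GC and length trend removed (3699 and 3056 genes). All groups share the estimate of a gene's spread, so p-values and standard errors (SE) can understate the spread of TTA-1 DMSO. On the log2(FPKM + 1) scale, which shrinks genes of low level, limma called 2103 and 1717 genes. Some genes named below differed by less than 2-fold on that scale when no filter on low values was used. FOXE1, CDH1, SNAI2, ZEB2, ELF3, MITF, LAMA1, MLLT3, GPR85, THBS2 and PTGS2 were among them, and this list is not complete. PPL (mean 0.62 FPKM in KHM-5M and 1.29 in TTA-1) and SSC4D (0.97 and 2.16), named near the end, are other genes of low level. In bulk RNA, fewer cells that express a gene and less RNA per cell cannot be told apart.

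**Figure D1:**
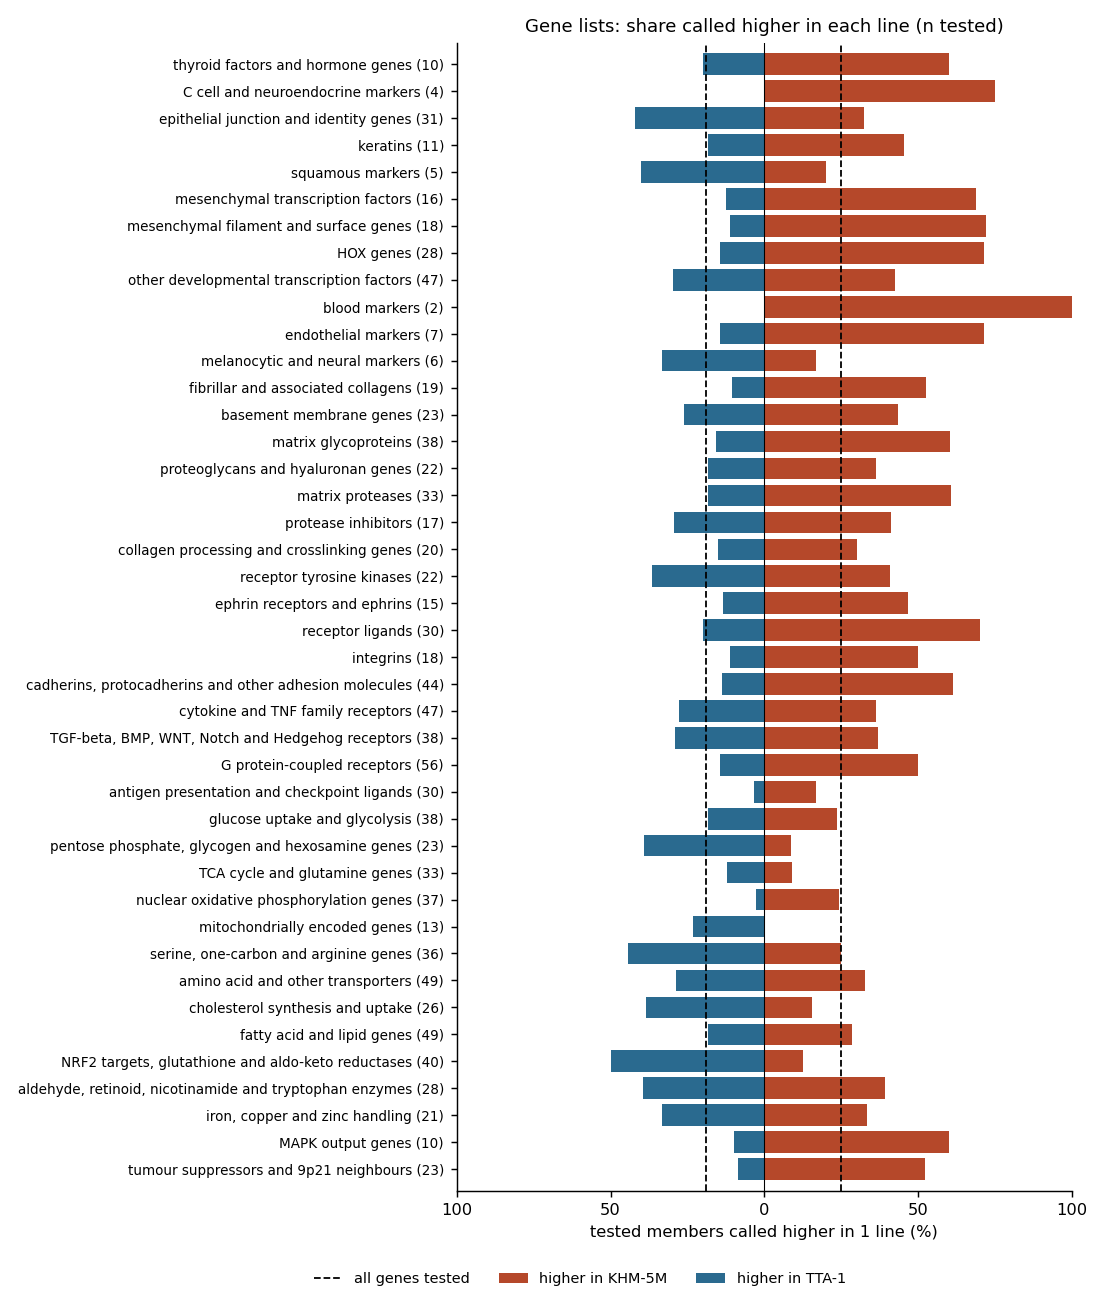
Share of the tested members of each of 42 gene lists called higher in KHM-5M (red, right) or in TTA-1 (blue, left), in percent, with the number tested in brackets. Dashed lines mark the shares over all genes tested, 25.0% and 18.9%. The lists were chosen with earlier results of these data known, so their shares are descriptions and no test. Mesenchymal filament genes, HOX genes and receptor ligands reach farthest to the KHM-5M side among lists of at least 15 tested members, and the NRF2 list reaches farthest to the TTA-1 side.

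Of the thyroid program, PAX8 RNA stood high in KHM-5M and almost nothing of the hormone-making machinery was detected in either line. The list of 23 thyroid factors and hormone genes had 10 tested members, of which 6 were called higher in KHM-5M and 2 in TTA-1. PAX8 (ENSG00000125618, chr2:113215997-113278950, minus strand, GRCh38), a paired-box factor that follicular cells need, was measured at 202, 208 and 219 CPM in the KHM-5M libraries and at 3.97, 2.96 and 3.84 CPM in the TTA-1 libraries (log2 fold change 5.87, SE 0.12, edgeR adjusted p = 1.5e-16). Every KHM-5M library was high in PAX8 and every TTA-1 library was low. FOXE1, another factor of the thyroid primordium, was scarce in both lines (2.20, 2.88 and 2.29 CPM in KHM-5M and 0.455, 0.131 and 0.126 in TTA-1) and was called higher in KHM-5M (log2 fold change 3.33, SE 0.47, edgeR adjusted p = 5.9e-06). HHEX, which also takes part in thyroid formation, differed by less than 2-fold (log2 fold change 0.42). The other defining markers of follicular cells were at or near 0 in both lines, so the labelled tissue was not visible through them. Over the 3 KHM-5M and the 3 TTA-1 libraries, NKX2-1 had 2 and 1 counts, thyroglobulin (TG) 0 and 2, the thyrotropin receptor (TSHR) 0 and 1, and the iodide transporter SLC5A5 0 and 6.

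Genes that handle finished thyroid hormone went in both directions. DIO2 (ENSG00000211448, chr14:80197527-80387757, minus strand), the deiodinase that turns T4 into active T3, was measured at 0.113, 0.231 and 0.114 CPM in KHM-5M and at 406, 445 and 417 CPM in TTA-1 (log2 fold change -11.37, SE 0.17, edgeR adjusted p = 7.4e-18). DIO2 was thus abundant in every TTA-1 library and close to undetected in every KHM-5M library. The nuclear receptors split as well. THRA was higher in KHM-5M (43.6, 42.9 and 45.4 CPM against 16.0, 9.72 and 14.4, log2 fold change 1.72), while THRB was higher in TTA-1 (7.04, 8.24 and 6.18 CPM against 26.7, 27.7 and 25.5, log2 fold change -1.89).

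Neither line was simply the more epithelial one: junction and identity genes were divided between them while the simple keratins were shared. In the epithelial list 10 of 31 tested members were called higher in KHM-5M and 13 in TTA-1, with a median log2 fold change of -0.25. CDH1, the E-cadherin of adherens junctions, had 1 count in the KHM-5M libraries and 90 counts in TTA-1 (2.47, 1.91 and 1.45 CPM), where it was 102-fold (95% counting interval 17.8 to 4066) higher but still scarce. ESRP2, a regulator of epithelial splicing, was measured at 4.90, 2.77 and 4.12 CPM in KHM-5M and 83.5, 58.6 and 70.5 CPM in TTA-1 (log2 fold change -4.17, SE 0.19, edgeR adjusted p = 3.5e-12). The tight-junction genes MARVELD2 (1.77 ± 0.52 against 21.8 ± 0.58 CPM, mean ± SD, n = 3 libraries per line, KHM-5M first here and below) and CLDN4 (32.1 ± 2.1 against 127 ± 18 CPM) and the tricellular receptor LSR (6.33 ± 0.59 against 32.6 ± 5.7 CPM) were also higher in TTA-1. ELF3, an epithelial transcription factor, was higher in TTA-1 (0.362 ± 0.070 against 6.59 ± 1.4 CPM, log2 fold change -4.16). The libraries of the lines did not overlap for any of these TTA-1 genes.

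Other epithelial genes were higher in KHM-5M. PKP1, a desmosomal plakophilin, was measured at 16.0, 16.6 and 15.9 CPM in KHM-5M and had no count in TTA-1, which makes it at least 251-fold higher against a floor of 3 counts over the 3 libraries. SPINT2, an inhibitor of membrane serine proteases, was at 15.1, 13.5 and 19.2 CPM in KHM-5M and 1.43, 0.985 and 1.07 in TTA-1 (log2 fold change 3.77). CLDN7 (7.001 ± 0.50 against 0.794 ± 0.36 CPM) and EPS8L2, an actin-binding adaptor (232 ± 12 against 37.5 ± 7.6 CPM), were higher in KHM-5M too. EPCAM differed by less than 2-fold (5.91, 4.32 and 5.38 CPM against 3.71, 3.94 and 3.53, log2 fold change 0.48).

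Keratins form the intermediate filaments of epithelia, and the pair typical of simple epithelium was abundant in both lines. KRT8 was measured at 1556, 1522 and 1528 CPM in KHM-5M and 1750.1, 1170.4 and 1531 CPM in TTA-1 (log2 fold change 0.05, SE 0.10, edgeR adjusted p = 0.67), and the TTA-1 range enclosed that of KHM-5M. Its partner KRT18 was not called either (489 ± 4.1 against 628 ± 97 CPM, log2 fold change -0.36). KRT7 differed: it was measured at 71.0, 67.5 and 70.7 CPM in KHM-5M and 952, 775 and 823 CPM in TTA-1 (log2 fold change -3.61, SE 0.08, edgeR adjusted p = 6.4e-16), low in every KHM-5M library. KRT80 went the other way (159.8 ± 6.6 against 31.0 ± 4.3 CPM, log2 fold change 2.37). The hair keratin KRT81 was also higher in KHM-5M (14.6 ± 1.6 against 0.193 ± 0.11 CPM), but it is nearly identical to its neighbours and its reads can be split among them. Of 11 keratins tested 5 were called higher in KHM-5M, KRT80 and KRT81 among them, and 2 in TTA-1, KRT7 among them.

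Mesenchymal regulators were mostly a KHM-5M feature, although both lines carried vimentin. In the list of mesenchymal transcription factors 11 of 16 tested members were called higher in KHM-5M and 2 in TTA-1, with a median log2 fold change of 4.85, or 4.13 where genes with no count in 1 line are set at their bound. TWIST1, a basic helix-loop-helix factor of mesoderm, was measured at 25.2, 23.3 and 26.6 CPM in KHM-5M and 0.260, 0.394 and 0.126 CPM in TTA-1 (log2 fold change 6.56, SE 0.25, edgeR adjusted p = 3e-13). Its relative TWIST2 was also higher in KHM-5M (24.5, 22.5 and 25.4 CPM against 0.130, 0.131 and 0.0630 CPM, log2 fold change 7.71). Both genes were high in all KHM-5M libraries and under 1 CPM in all TTA-1 libraries. FOXL2, a forkhead factor, had 630 counts in KHM-5M and 3 in TTA-1, a ratio of 186-fold (95% counting interval 63.2 to 902). ZEB2, which represses E-cadherin, was higher in KHM-5M by a smaller step (37.1, 37.4 and 36.1 CPM against 15.2, 14.8 and 15.7, log2 fold change 1.28).

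ZEB1, the relative of ZEB2, was not called (32.7, 36.4 and 33.1 CPM against 31.3, 49.8 and 42.9, log2 fold change -0.28). SNAI2, a snail-family repressor, and FOXC1 were the list members called higher in TTA-1. SNAI2 was measured at 9.40, 9.97 and 10.6 CPM in KHM-5M and 18.9, 24.5 and 24.4 CPM in TTA-1 (log2 fold change -1.18, SE 0.13, edgeR adjusted p = 2.7e-07), and its log2 fold change was -0.74, below the 2-fold limit, with the GC and length trend removed. FOXC1 differed by -1.34 (18.9 ± 1.8 against 47.7 ± 4.7 CPM).

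In the list of mesenchymal filament and surface genes 13 of 18 tested members were called higher in KHM-5M and 2 in TTA-1, with a median log2 fold change of 5.02, or 4.62 with such genes at their bound. Only 1 member was called higher in TTA-1 when TTA-1 DMSO replicate 1 was left out. VIM, the vimentin filament, was abundant in both lines (2069, 2078 and 1969 CPM in KHM-5M and 1069, 1242 and 1128 CPM in TTA-1), and its log2 fold change of 0.83 stayed under the 2-fold limit with an edgeR adjusted p of 4.5e-09. CDH2, or N-cadherin, was not called (109, 111 and 102 CPM against 103, 132 and 109, log2 fold change -0.10), with overlapping libraries. NT5E, the surface enzyme CD73, was measured at 413, 408 and 405 CPM in KHM-5M and 18.7, 23.7 and 19.97 in TTA-1 (log2 fold change 4.30). THY1, or CD90, stood at 52.9, 48.1 and 48.9 CPM in KHM-5M and 0.325, 0.526 and 0.504 CPM in TTA-1 (log2 fold change 6.77). ENG, the TGF-beta co-receptor endoglin, stood at 206, 197 and 201 CPM in KHM-5M and 0.455, 0.526 and 0.126 in TTA-1 (log2 fold change 9.07, SE 0.19, edgeR adjusted p = 3e-16). These surface antigens, which are used together to define mesenchymal stromal cells, were each high in all KHM-5M libraries. NES, the filament nestin, was higher in KHM-5M (93.6 ± 1.9 against 1.70 ± 0.63 CPM). S100A4, often read as a fibroblast marker, was higher in TTA-1 (3.12 ± 0.33 against 11.8 ± 0.64 CPM, log2 fold change -1.92).

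HOX genes, whose expression records position along the body axis, were called higher in KHM-5M for 20 of 28 tested members and in TTA-1 for 4 (median log2 fold change 3.06). HOXB7 was measured at 32.7, 31.5 and 38.6 CPM in KHM-5M and 0.520, 0.460 and 0.567 CPM in TTA-1 (log2 fold change 6.03). HOXB3 was measured at 21.8, 21.3 and 22.8 CPM in KHM-5M and 0.260, 0.460 and 0.378 CPM in TTA-1 (log2 fold change 5.88). HOXB4 had 3 counts over the TTA-1 libraries against 1013 in KHM-5M, a ratio of 298-fold (95% counting interval 102 to 1449.5). These HOXB genes were thus high in all KHM-5M libraries and under 1 CPM in all TTA-1 libraries. HOXA11, a posterior gene, was higher in TTA-1 (1.81 ± 0.52 against 9.39 ± 0.83 CPM, log2 fold change -2.37). Neighbouring HOX genes overlap antisense transcripts, and the library preparation described by the labels does not mark strand, so reads of a HOX gene and its antisense partner cannot be told apart.

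Each line carried its own set of other developmental factors, with 20 of 47 called higher in KHM-5M and 14 in TTA-1. TBX3, a T-box repressor, was measured at 59.3, 53.0 and 54.8 CPM in KHM-5M and 0.715, 0.263 and 0.693 CPM in TTA-1 (log2 fold change 6.62, SE 0.20, edgeR adjusted p = 1.7e-14). PAX6 (23.3 ± 0.45 against 0.346 ± 0.17 CPM) and TBX18 (24.4 ± 1.3 against 0.406 ± 0.19 CPM) were higher in KHM-5M as well. On the TTA-1 side, SIX2, a homeobox factor of kidney progenitors, was measured at 0.845, 0.173 and 0.916 CPM in KHM-5M and 86.1, 76.6 and 76.1 CPM in TTA-1 (log2 fold change -6.93, SE 0.21, edgeR adjusted p = 1.9e-14). IRX2 had no count in KHM-5M and 28.4, 18.4 and 19.97 CPM in TTA-1, at least 390.0-fold higher. RUNX3 (0.322 ± 0.28 against 28.3 ± 4.7 CPM) and GATA6, a factor of endoderm (6.63 ± 0.46 against 27.7 ± 1.7 CPM), were higher in TTA-1 too. The deposited table assigns 1136 of the genes tested to a transcription factor family. Of these 28.2% were called higher in KHM-5M and 17.3% in TTA-1, against 25.0% and 18.9% of all genes tested. ETV1 and FLI1, both ETS factors, were among the KHM-5M factors with the largest differences. ETV1 had 1959 counts in KHM-5M and 1 in TTA-1, a ratio of 1731-fold (95% counting interval 310.4 to 68419). FLI1 had 1494 counts in KHM-5M and 1 in TTA-1, a ratio of 1320.4-fold (95% counting interval 237 to 52187). TOX was among those of TTA-1 (0.113, 0.0576 and 0.0572 CPM against 57.6, 63.6 and 61.4).

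Markers of blood and C cells were low in both lines, while lists of endothelial, squamous and neural markers each held a few expressed genes. Of the 12 blood markers 2 passed the filter on low counts, and their summed level was 4.55 to 5.74 CPM in the KHM-5M libraries and 0.657 to 1.39 in the TTA-1 libraries. PTPRC, or CD45, had no count in any of the 6 libraries. The C-cell hormone gene CALCA had 1 and 0 counts, and the summed level of the 10 C-cell and neuroendocrine markers was 2.58 to 3.83 CPM in the KHM-5M libraries and 0.788 to 1.39 in the TTA-1 libraries. Of 10 endothelial markers 7 were tested, 5 called higher in KHM-5M and 1 in TTA-1, and their summed level was 137 to 148 CPM in the KHM-5M libraries and 9.79 to 12.3 in the TTA-1 libraries. Most of the KHM-5M sum was TIE1, an orphan receptor of endothelium, at 112, 118 and 118 CPM, while TTA-1 had 1 count, a ratio of 5396-fold (95% counting interval 968 to 213146). Of the endothelial markers 2 were called higher in TTA-1 when TTA-1 DMSO replicate 2 was left out. The genes that define endothelium were near 0, with 13 and 34 counts of PECAM1 and 16 and 0 of CDH5. The 12 squamous markers had 5 tested members, and their summed level was 403 to 413 CPM in the KHM-5M libraries and 270.5 to 402 in the TTA-1 libraries. SFN (154 ± 3.1 against 254 ± 64 CPM) and PERP (87.8 ± 1.3 against 74.7 ± 3.4 CPM), which many epithelia express, were not called, and S100A2, a calcium-binding protein, was higher in KHM-5M (167 ± 6.6 against 6.79 ± 2.6 CPM). The 14 melanocytic and neural markers had 6 tested members, and their summed level was 137 to 145 CPM in the KHM-5M libraries and 69.4 to 76.9 in the TTA-1 libraries. In this sum KHM-5M had ENO2, the neuronal enolase (130.4 ± 4.7 against 22.1 ± 1.6 CPM), and TTA-1 had MAP2, a microtubule protein of neurons (3.03 ± 0.18 against 38.8 ± 3.4 CPM). The melanocytic factor MITF was higher in TTA-1 (3.18 ± 0.59 against 9.13 ± 2.0 CPM) while SOX10, which acts upstream of it in melanocytes, had 3 counts in each line. Whether other cells contributed to any of these levels was not tested.

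**Figure D2:**
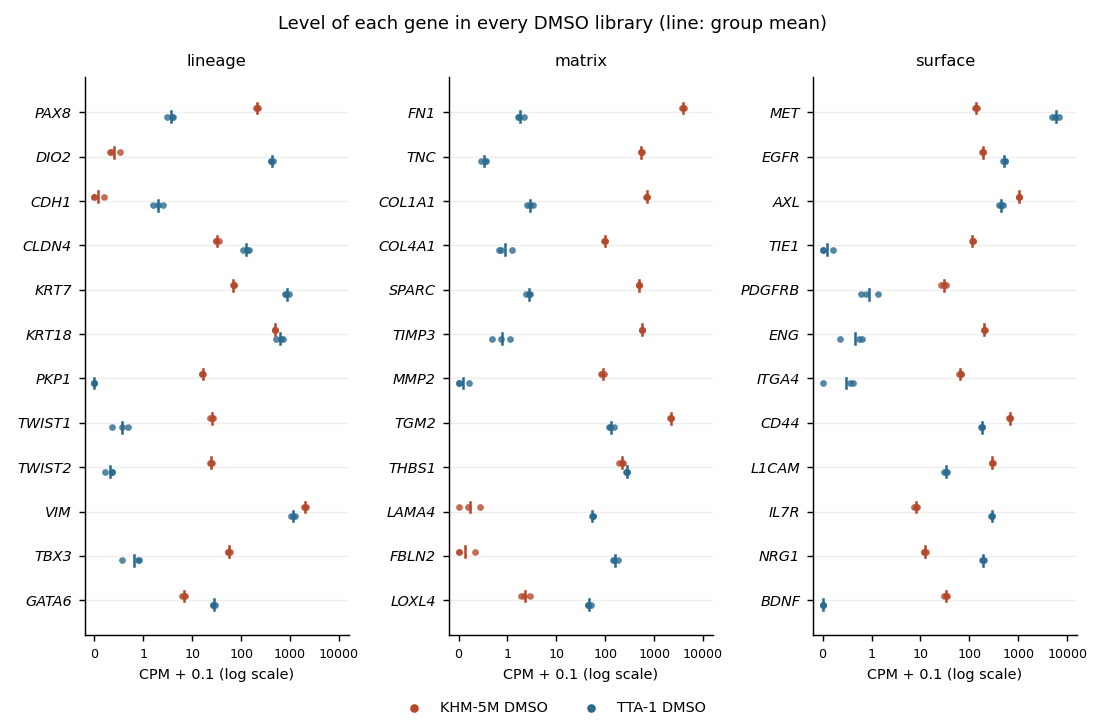
CPM of 36 lineage, matrix and surface genes in each of the 3 KHM-5M (red) and 3 TTA-1 (blue) DMSO libraries, on a log scale after adding 0.1, with group means as short lines. Points of the lines lie within 3-fold for KRT18, VIM, THBS1, EGFR and AXL, while FN1, TNC, DIO2, TIE1 and MMP2 lie more than 100-fold apart.

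Matrix glycoproteins were more often higher in KHM-5M than in TTA-1, and the large glycoproteins fibronectin and tenascin C were nearly undetected in TTA-1. FN1 (ENSG00000115414, chr2:215360440-215436172, minus strand), the fibronectin that links matrix to integrins, was measured at 3825, 3759.9 and 4115 CPM in the KHM-5M libraries and at 1.63, 2.04 and 1.51 CPM in the TTA-1 libraries (log2 fold change 11.14, SE 0.13, edgeR adjusted p = 6.9e-19). TNC, the tenascin of remodelling tissue, was measured at 541, 538 and 557 CPM in KHM-5M and 0.195, 0.263 and 0.252 CPM in TTA-1 (log2 fold change 11.12, SE 0.18, edgeR adjusted p = 1.5e-17). SPARC, a collagen-binding glycoprotein, was measured at 482, 488 and 489 CPM in KHM-5M and 2.86, 2.30 and 2.65 CPM in TTA-1 (log2 fold change 7.54, SE 0.12, edgeR adjusted p = 9.9e-18). The 3 genes were high in every KHM-5M library and under 3 CPM in every TTA-1 library. In FPKM, FN1 was at 222, SPARC at 99.5 and TNC at 55.9 in KHM-5M. IGFBP4, which binds insulin-like growth factors, belonged to the same list (341 ± 7.9 against 0.301 ± 0.097 CPM). Over all matrix glycoproteins 23 of 38 tested members were called higher in KHM-5M and 6 in TTA-1, with a median log2 fold change of 2.06.

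Some matrix glycoproteins did not follow. THBS1, or thrombospondin 1, was abundant in both lines (233, 219.8 and 194 CPM against 274, 283 and 272, log2 fold change -0.36) and not called, whereas its relative THBS2 had 266 counts in KHM-5M and none in TTA-1 (at least 78.4-fold higher). FBLN2, a fibulin of elastic fibres, had 2 counts in KHM-5M and stood at 179.9, 147 and 152 CPM in TTA-1, where it was 4193-fold (95% counting interval 1160.3 to 34627) higher. EFEMP1, another fibulin, was also higher in TTA-1 (6.94 ± 0.70 against 43.3 ± 2.8 CPM, log2 fold change -2.64).

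Among collagens, the list of fibrillar and associated chains had 10 of 19 tested members higher in KHM-5M and 2 in TTA-1, or 7 and 6 with the GC and length trend removed. COL1A1, the alpha 1 chain of type I collagen, was measured at 685, 716 and 709 CPM in KHM-5M and 2.73, 2.43 and 3.28 CPM in TTA-1 (log2 fold change 7.96, SE 0.13, edgeR adjusted p = 1.2e-17). COL1A2, its partner chain in the usual type I trimer, had 1 count in KHM-5M and 3 in TTA-1. COL3A1 had 1 count in KHM-5M and none in TTA-1. KHM-5M thus held the RNA of 1 chain of type I collagen without the other. COL13A1, a transmembrane collagen (40.5 ± 2.0 against 2.09 ± 0.39 CPM), and COL8A1 (1247 counts against 2, a ratio of 551-fold (95% counting interval 152 to 4555)) were higher in KHM-5M. COL12A1, which decorates fibrils, was higher in TTA-1 (51.8, 60.8 and 54.3 CPM against 149, 189.9 and 164, log2 fold change -1.59).

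Basement membrane genes were divided between the lines. COL4A1 and COL4A2, the neighbouring genes of the common type IV collagen chains, were both higher in KHM-5M. COL4A2 was measured at 288, 279 and 298 CPM in KHM-5M and 1.04, 0.854 and 1.13 CPM in TTA-1 (log2 fold change 8.14, SE 0.12, edgeR adjusted p = 7.4e-18), and COL4A1 at 97.6, 95.7 and 99.6 and 1.17, 0.657 and 0.567 CPM (log2 fold change 6.92). NID1, which bridges laminin and collagen IV, followed them (165 ± 4.8 against 2.94 ± 0.82 CPM, log2 fold change 5.81). Laminin chains went both ways. LAMA4, an alpha chain of vessels and muscle, had 4 counts over the KHM-5M libraries and stood at 52.5, 55.4 and 55.1 CPM in TTA-1 (log2 fold change -9.34). LAMA1, the alpha chain of early embryos, was higher in KHM-5M at a low level (5.34 ± 0.80 against 0.625 ± 0.080 CPM, log2 fold change 3.08). LAMC3, a gamma chain, was measured at 0.394, 0.461 and 0.515 CPM in KHM-5M and 164, 122 and 139 CPM in TTA-1 (log2 fold change -8.26, SE 0.17, edgeR adjusted p = 1.8e-16). LAMA5 was not called (177 ± 28 against 183 ± 16 CPM, log2 fold change -0.05). FBLN1 was higher in TTA-1 (25.6 ± 0.65 against 145 ± 12 CPM). Over the list 10 of 23 members were higher in KHM-5M and 6 in TTA-1, or 7 and 9 with the GC and length trend removed, with a main median log2 fold change of -0.05 that changed sign under upper-quartile scaling (0.05).

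Collagen-processing enzymes came in different versions. LOXL1, a lysyl oxidase of elastin, was measured at 141, 132 and 145 CPM in KHM-5M and had 2 counts in TTA-1, a ratio of 3235-fold (95% counting interval 895 to 26718). LOXL4, from the same family, was higher in TTA-1 (2.82, 2.07 and 1.83 CPM against 50.7, 44.8 and 45.1, log2 fold change -4.38). LOXL2 differed by -0.33 on the log2 scale and was not called. The procollagen C-proteinase enhancers were also divided, PCOLCE being higher in KHM-5M (13.0 ± 1.6 against 0.624 ± 0.20 CPM) and PCOLCE2 in TTA-1 (5.99 ± 0.98 against 93.9 ± 2.6 CPM). PLOD2, the lysyl hydroxylase of collagen telopeptides (72.9 ± 3.9 against 509 ± 100.4 CPM), and the prolyl 3-hydroxylase P3H2 (10.5, 10.2 and 11.7 CPM against 403, 414 and 386, log2 fold change -5.21) were higher in TTA-1. TGM2, a transglutaminase that crosslinks matrix proteins, was abundant in KHM-5M at 2249, 2259 and 2121 CPM, against 149, 117 and 124 CPM in TTA-1 (log2 fold change 4.09, SE 0.10, edgeR adjusted p = 1.4e-15).

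Of the matrix proteases 20 of 33 tested were called higher in KHM-5M and 6 in TTA-1. MMP2, the gelatinase A that degrades collagen IV, was measured at 85.3, 83.9 and 95.9 CPM in KHM-5M and had 1 count in TTA-1, a ratio of 4105-fold (95% counting interval 736 to 162181). MMP14, the membrane protease that activates pro-MMP2, was measured at 432, 411 and 443 CPM in KHM-5M and 103, 70.6 and 95.4 CPM in TTA-1 (log2 fold change 2.26, SE 0.11, edgeR adjusted p = 5.2e-12). PLAU, the urokinase that activates plasmin, was higher in KHM-5M as well (446, 449.7 and 441 CPM against 67.5, 65.4 and 66.8, log2 fold change 2.74). MMP1 was nearly absent from both (3 and 8 counts). ADAMTS12 had no count in TTA-1 and 32.9, 29.2 and 28.96 CPM in KHM-5M, at least 471-fold higher. ADAMTS2, which trims procollagen, was higher in TTA-1 (2.70 ± 0.34 against 39.2 ± 2.0 CPM, log2 fold change -3.86).

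Protease inhibitors were divided within families. TIMP3, the matrix-bound metalloproteinase inhibitor, was measured at 569, 557 and 578 CPM in KHM-5M and 1.04, 0.657 and 0.378 CPM in TTA-1 (log2 fold change 9.67, SE 0.15, edgeR adjusted p = 9e-18). TIMP1 was not called (71.7, 70.0 and 73.9 CPM against 92.6, 76.9 and 83.7, log2 fold change -0.23). TFPI2 was higher in KHM-5M (119.6 ± 8.4 against 21.6 ± 2.3 CPM) and TFPI, the inhibitor of tissue factor, in TTA-1 (27.7 ± 0.18 against 130.1 ± 31 CPM). SERPINB2 had no count in KHM-5M and 22.96, 24.2 and 26.1 CPM in TTA-1, at least 428-fold higher. Among proteoglycans, CSPG4 (37.1 ± 0.58 against 0.385 ± 0.16 CPM) and the syndecan SDC2 (44.1 ± 2.0 against 0.625 ± 0.21 CPM) were higher in KHM-5M and the glypican GPC1 (44.8 ± 4.2 against 164 ± 29 CPM) in TTA-1.

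At the surface, MET was very abundant in TTA-1, and TIE1, PDGFRB and AXL were higher in KHM-5M. MET (ENSG00000105976, chr7:116672390-116798386, plus strand), the receptor of hepatocyte growth factor, was measured at 140.4, 139.8 and 133 CPM in the KHM-5M libraries and at 4901, 6964 and 5596 CPM in the TTA-1 libraries (log2 fold change -5.40, SE 0.12, edgeR adjusted p = 5.6e-16). TTA-1 libraries differed among themselves in MET by less than 1.5-fold, and all lay far above KHM-5M. In FPKM, MET stood at 804 in TTA-1 and 19.3 in KHM-5M, and EGFR, the receptor of epidermal growth factor, stood at 40.1 and 14.8. EGFR was higher in TTA-1 by less (182, 189 and 191 CPM against 479, 530.1 and 539, log2 fold change -1.46, SE 0.07, edgeR adjusted p = 2.9e-12). MST1R, the relative of MET, was also higher in TTA-1 (4 counts in KHM-5M and 8.65, 7.23 and 7.43 CPM in TTA-1, log2 fold change -6.54). IGF1R (27.4 ± 0.97 against 78.3 ± 5.9 CPM), FGFR4 (3.25 ± 0.77 against 22.7 ± 1.5 CPM) and the orphan receptor ROR1 (18.5 ± 1.9 against 114 ± 11 CPM) were higher in TTA-1 too.

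On the KHM-5M side, PDGFRB, the platelet-derived growth factor receptor of stromal cells, was measured at 30.1, 26.3 and 33.0 CPM in KHM-5M and 1.24, 0.657 and 0.504 CPM in TTA-1 (log2 fold change 5.21, SE 0.20, edgeR adjusted p = 3.2e-13). AXL, a receptor of GAS6, was abundant in both lines and higher in KHM-5M (1029, 1030.5 and 1023 CPM against 486, 397 and 446, log2 fold change 1.21, SE 0.07, edgeR adjusted p = 1.6e-10). ERBB2 was also higher in KHM-5M (89.5, 89.2 and 88.9 CPM against 45.2, 35.5 and 38.5, log2 fold change 1.17). With the GC and length trend removed, the log2 fold changes of AXL and ERBB2 were 0.79 and 0.49, below the 2-fold limit. FGFR1 (94.0 ± 0.11 against 105 ± 8.9 CPM) and ERBB3 (3.84 ± 0.20 against 4.26 ± 0.45 CPM) were not called. Over all receptor tyrosine kinases 9 of 22 tested (40.9%) were higher in KHM-5M and 8 (36.4%) in TTA-1. The shares over all genes tested were 25.0% and 18.9%. Of the ephrin system, EPHB2 was higher in KHM-5M (132 ± 3.9 against 28.4 ± 3.4 CPM) and EPHB1 had 870 counts there and none in TTA-1 (at least 256-fold higher).

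Receptor ligands were called higher in KHM-5M for 21 of 30 tested genes and in TTA-1 for 6, with a median log2 fold change of 2.76. BDNF and GDNF, both neurotrophic factors, and ANGPT1, the ligand of TEK, had no count in TTA-1. BDNF was measured at 30.01, 34.7 and 33.9 CPM in KHM-5M, at least 509-fold higher. GDNF was measured at 17.4, 16.9 and 17.2 CPM in KHM-5M, at least 266-fold higher. ANGPT1 was measured at 21.5, 17.8 and 16.4 CPM in KHM-5M, at least 288-fold higher. The TTA-1 ligands included NRG1, the neuregulin that binds ERBB3 and ERBB4 (11.5, 12.6 and 11.96 CPM against 199, 192 and 184, log2 fold change -3.99, SE 0.09, edgeR adjusted p = 4.2e-16), and KITLG, or stem cell factor (7.63 ± 0.84 against 154 ± 39 CPM, log2 fold change -4.34). TGFA, an EGFR ligand, was higher in TTA-1 at low levels (1.75 ± 0.31 against 10.4 ± 0.96 CPM).

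Adhesion receptors leaned to KHM-5M, where 27 of 44 tested cadherins, protocadherins and other adhesion genes were higher, against 6 in TTA-1. NCAM1, a neural adhesion molecule, was measured at 101, 99.6 and 105 CPM in KHM-5M and had 1 count in TTA-1, a ratio of 4738-fold (95% counting interval 850.0 to 187175). CDH13, a cadherin anchored without a cytoplasmic tail, was measured at 76.5, 79.7 and 82.5 CPM in KHM-5M and had no count in TTA-1, at least 1232-fold higher. CD44, the hyaluronan receptor, was measured at 673, 672 and 650.2 CPM in KHM-5M and 182, 176 and 185 CPM in TTA-1 (log2 fold change 1.88, SE 0.06, edgeR adjusted p = 5.5e-14). NRCAM, related to L1, was higher in TTA-1 (0.338, 0.0576 and 0.172 CPM against 32.3, 46.2 and 38.3, log2 fold change -7.62). The clustered PCDHB genes were called higher in KHM-5M for 15 of 15 tested (median log2 fold change 5.39). They are near-identical single-exon copies whose reads can be split among neighbours, so single members are uncertain.

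Integrins, the matrix receptors, were called higher in KHM-5M for 9 of 18 tested genes and in TTA-1 for 2 (1 with the GC and length trend removed). ITGB1, the common beta chain, was not called (682, 679.7 and 666 CPM against 608, 713 and 657, log2 fold change 0.04, edgeR adjusted p = 0.64). ITGA4, a fibronectin-binding chain, was measured at 67.3, 67.0 and 60.9 CPM in KHM-5M and 0.325, 0.263 and 0 CPM in TTA-1 (log2 fold change 8.34, SE 0.26, edgeR adjusted p = 3.7e-14). ITGA3, a laminin-binding chain, was higher in KHM-5M (716 ± 14 against 256 ± 31 CPM, log2 fold change 1.48), but its log2 fold change was 0.67 with the GC and length trend removed. ITGA5, the main fibronectin receptor chain, was not called (132 ± 6.4 against 87.2 ± 7.9 CPM). ITGAV, which binds vitronectin and latent TGF-beta, was higher in TTA-1 (118, 125 and 113 CPM against 375, 519.6 and 445, log2 fold change -1.91, SE 0.11, edgeR adjusted p = 1e-10).

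Cytokine and morphogen receptors were divided. IL7R, the interleukin 7 receptor, was measured at 7.996, 8.30 and 7.21 CPM in KHM-5M and 272, 297 and 291 CPM in TTA-1 (log2 fold change -5.19, SE 0.09, edgeR adjusted p = 2.7e-17). IL1RAP, the shared chain of interleukin 1 receptors, was measured at 8.62, 7.67 and 8.70 CPM in KHM-5M and 291, 391 and 323 CPM in TTA-1 (log2 fold change -5.33, SE 0.12, edgeR adjusted p = 7.3e-16). IL6ST, the signalling chain of interleukin 6, was higher in TTA-1 (83.7 ± 2.9 against 562 ± 152 CPM, log2 fold change -2.75). CD40 had no count in TTA-1 and 58.6, 59.3 and 65.0 CPM in KHM-5M, at least 944-fold higher. TGFBR2, the TGF-beta receptor that binds ligand first, was higher in KHM-5M (263, 242 and 257 CPM against 55.7, 70.0 and 64.0, log2 fold change 2.01), while the co-receptor TGFBR3 was higher in TTA-1 (4.62, 5.82 and 5.09 CPM against 89.4, 111 and 99.3, log2 fold change -4.27). Notch ligands JAG1 (4.51 ± 0.39 against 18.9 ± 1.2 CPM) and JAG2 (6.23 ± 0.56 against 63.4 ± 7.5 CPM) were higher in TTA-1, and the Hedgehog transducer SMO (13.9 ± 0.34 against 0.584 ± 0.30 CPM) in KHM-5M. F3, the tissue factor that starts coagulation, was measured at 10.3, 9.57 and 10.5 CPM in KHM-5M and 512, 559 and 560.0 CPM in TTA-1 (log2 fold change -5.74, SE 0.08, edgeR adjusted p = 4.9e-18).

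Of the G protein-coupled receptors 28 of 56 tested were higher in KHM-5M and 8 in TTA-1. The adenosine receptor ADORA1 (40.3, 32.4 and 33.0 CPM against 0.0650, 0.0657 and 0.189, log2 fold change 8.26) was on the KHM-5M side. The adhesion receptor ADGRG6 (6.31, 6.34 and 7.84 CPM against 161, 207 and 182, log2 fold change -4.75) was on the TTA-1 side. Most antigen presentation genes had an edgeR adjusted p below 0.05 (9 higher in KHM-5M and 14 in TTA-1), but few passed the 2-fold limit. With that limit 24 of 30 genes were not called, 5 were higher in KHM-5M and 1 in TTA-1, or 5 in TTA-1 with the GC and length trend removed. Leaving out 1 library gave 2 in TTA-1 without KHM-5M DMSO replicate 1 or 3 or without TTA-1 DMSO replicate 1 or 2, and 3 without TTA-1 DMSO replicate 3. The checkpoint ligand CD274 was low and not called (4.99 ± 0.94 against 6.67 ± 0.70 CPM). CD74, the class II invariant chain, was at 19.6, 17.4 and 19.3 CPM in KHM-5M and had 1 count in TTA-1, a ratio of 872-fold (95% counting interval 156 to 34488).

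In metabolism, the list with the largest share higher in TTA-1 was that of NRF2 targets, glutathione genes and aldo-keto reductases. NRF2 (gene NFE2L2) is a transcription factor that KEAP1 marks for degradation, and when stable it drives glutathione, thioredoxin and aldo-keto reductase genes through antioxidant response elements. In this list 5 of 40 tested members were called higher in KHM-5M and 20 in TTA-1, with a median log2 fold change of -1.10. Like the other lists it was chosen with earlier results of these data known, so its share is a description and no test. The median was below 0 under each of the 3 other scalings and with the GC and length trend removed. KEAP1 (ENSG00000079999, chr19:10486120-10503741, minus strand) was measured at 116, 113 and 114 CPM in KHM-5M and 13.1, 11.5 and 10.6 CPM in TTA-1 (log2 fold change 3.28, SE 0.11, edgeR adjusted p = 7.4e-14), low in every TTA-1 library. NFE2L2 itself was not called (66.5, 64.6 and 69.9 CPM against 86.0, 136 and 104, log2 fold change -0.70).

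The promoter windows of TXNRD1, GCLM and KEAP1 are shown because they hold the core of the antioxidant response element, TGACNNNGC, searched on both strands, and because the genes differed between the lines. TXNRD1 and GCLM were chosen after their values were seen. Sequences are those of RefSeq on GRCh38.p14, 250 bases before to 50 after the annotated start, 5′ to 3′ on the strand of the gene, with each match in capitals (GCNNNGTCA where the match is on the opposite strand).
TXNRD1: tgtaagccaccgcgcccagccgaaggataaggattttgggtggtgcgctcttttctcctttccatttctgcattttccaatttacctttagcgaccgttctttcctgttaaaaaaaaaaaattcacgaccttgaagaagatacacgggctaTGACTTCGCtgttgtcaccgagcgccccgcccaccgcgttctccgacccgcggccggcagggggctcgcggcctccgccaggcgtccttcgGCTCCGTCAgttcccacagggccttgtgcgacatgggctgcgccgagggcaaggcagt
GCLM: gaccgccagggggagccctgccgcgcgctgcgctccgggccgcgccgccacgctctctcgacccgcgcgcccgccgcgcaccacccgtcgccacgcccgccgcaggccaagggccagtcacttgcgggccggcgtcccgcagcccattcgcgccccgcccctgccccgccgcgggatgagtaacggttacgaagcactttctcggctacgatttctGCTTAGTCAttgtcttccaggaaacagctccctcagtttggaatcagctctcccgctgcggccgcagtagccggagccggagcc
KEAP1: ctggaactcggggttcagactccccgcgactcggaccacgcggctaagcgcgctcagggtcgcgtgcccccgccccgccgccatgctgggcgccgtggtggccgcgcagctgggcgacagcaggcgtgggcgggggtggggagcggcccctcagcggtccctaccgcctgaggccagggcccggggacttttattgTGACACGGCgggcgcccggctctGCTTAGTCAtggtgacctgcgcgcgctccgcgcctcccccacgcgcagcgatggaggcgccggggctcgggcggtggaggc
The TXNRD1 window lies at chr12:104215529-104215828, plus strand, with matches that begin 99 and 8 bases before the start, the latter on the opposite strand. The GCLM window lies at chr1:93909381-93909680, minus strand, with 1 match on the opposite strand, 34 bases before the start. The KEAP1 window lies at chr19:10502722-10503021, minus strand, with matches 54 and 31 bases before the start, the latter on the opposite strand. The window of another annotated TXNRD1 start holds 1 match, on the opposite strand 102 bases before that start. Another annotated KEAP1 start holds no match. The windows of AKR1C1, AKR1C2, AKR1C3, ABCC2, NQO1 and SRXN1, genes described below, hold no match either. Of 35116 promoter entries of the same length 13.3% hold the motif. Of the list's 44 genes 34 have an entry, and 14 of their 46 entries hold it (30.4%). A match describes letters only and shows no binding, and a window without a match says nothing of sequence outside it.

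TXNRD1, a thioredoxin reductase, was measured at 1153, 1159.8 and 1123 CPM in KHM-5M and 3382, 3443 and 3296 CPM in TTA-1 (log2 fold change -1.56, SE 0.05, edgeR adjusted p = 1.2e-13). GCLM, the modifier subunit of the enzyme that limits glutathione synthesis, was measured at 48.8, 45.5 and 43.5 CPM in KHM-5M and 375, 509.9 and 408 CPM in TTA-1 (log2 fold change -3.23, SE 0.11, edgeR adjusted p = 1.1e-13), while the catalytic subunit GCLC fell just short of the limit (43.3 ± 1.4 against 81.9 ± 3.0 CPM, log2 fold change -0.92). SLC7A11, the cystine importer, was measured at 46.5, 42.3 and 39.4 CPM in KHM-5M and 412, 667 and 524 CPM in TTA-1 (log2 fold change -3.64, SE 0.21, edgeR adjusted p = 8.8e-11). GPX4, which repairs lipid peroxides, was higher in TTA-1 (193 ± 10 against 445 ± 17 CPM, log2 fold change -1.21), and GPX1 in KHM-5M (362 ± 12 against 101 ± 9.3 CPM, log2 fold change 1.84).

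The aldo-keto reductases, which reduce carbonyls and steroids, were among the largest differences of the list. AKR1C1 was measured at 3.21, 3.17 and 2.46 CPM in KHM-5M and 1352, 1305 and 1316 CPM in TTA-1 (log2 fold change -8.81, SE 0.10, edgeR adjusted p = 6.5e-19). AKR1C2 was measured at 0.113, 0.692 and 0.572 CPM in KHM-5M and 705, 724 and 729 CPM in TTA-1 (log2 fold change -10.60), and AKR1C3 at 13.5, 14.8 and 15.4 and 552, 592 and 601 CPM (log2 fold change -5.32). These genes are close copies, so the division of reads between them is uncertain, but each was low in all KHM-5M libraries. ABCC2, an exporter of glutathione conjugates, stood at 0.394, 0.634 and 0.401 CPM in KHM-5M and 303, 366 and 343 CPM in TTA-1 (log2 fold change -9.45). For all of these genes the libraries of TTA-1 lay far above those of KHM-5M. Other classical targets were not called: NQO1 was abundant in both lines (597, 590.5 and 582 CPM against 497, 489.5 and 519, log2 fold change 0.23), and SRXN1 differed by -0.06 on the log2 scale. HMOX1 was higher in TTA-1 (21.3, 19.5 and 21.6 CPM against 117, 72.2 and 104, log2 fold change -2.23).

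**Figure D3:**
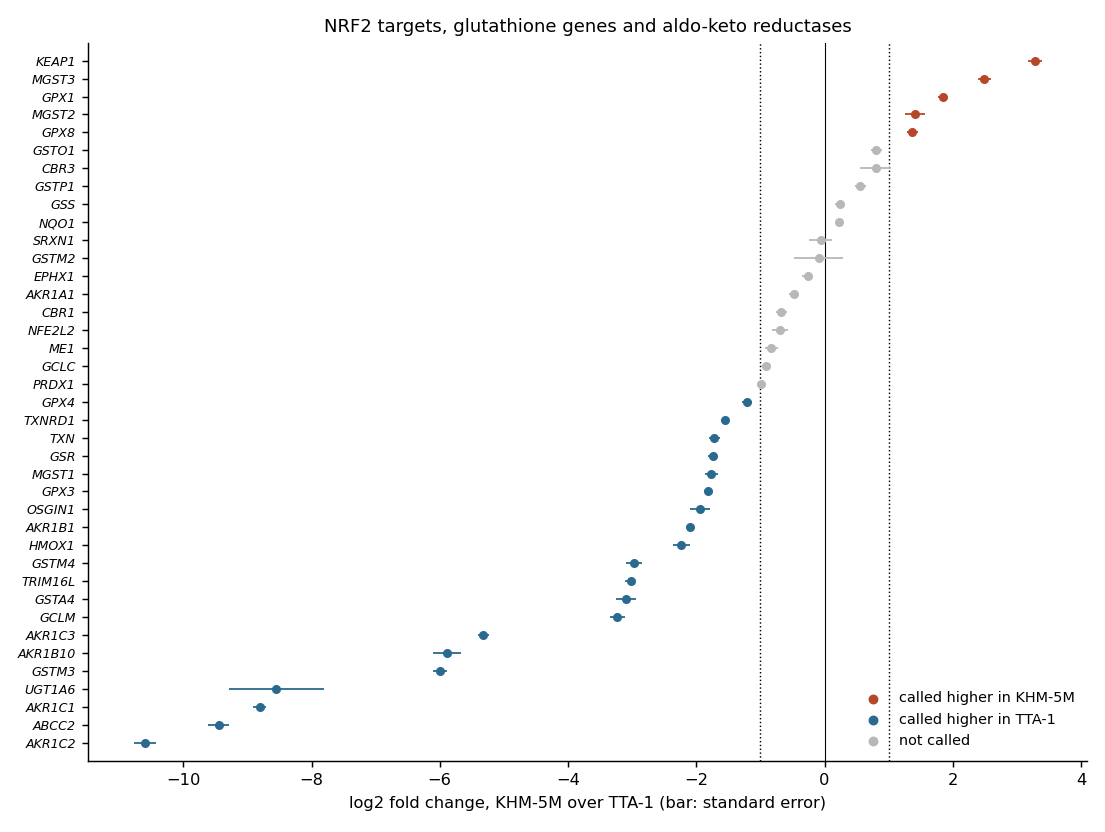
Log2 fold change, KHM-5M over TTA-1, of 39 of the 40 tested NRF2, glutathione and aldo-keto reductase genes, with standard errors as bars and the 2-fold limits dotted. On the TTA-1 side lie 20 blue genes with AKR1C2 farthest out, 5 red ones lie on the KHM-5M side with KEAP1 farthest out, and 14 grey ones, NQO1 among them, were not called.

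Of 38 tested genes of glucose uptake and glycolysis 9 were higher in KHM-5M and 7 in TTA-1, or 7 and 10 with the GC and length trend removed. The main shares, 23.7% and 18.4%, were near the 25.0% and 18.9% of all genes tested. LDHA, which makes lactate, was at 1531, 1501 and 1441 CPM in KHM-5M and 1648, 1950.5 and 1717 CPM in TTA-1 (log2 fold change -0.25). The hexokinases, which trap glucose in the cell, differed among themselves. HKDC1, a hexokinase-like enzyme, was measured at 2.59, 1.73 and 2.80 CPM in KHM-5M and 200.2, 186 and 191 CPM in TTA-1 (log2 fold change -6.33, SE 0.14, edgeR adjusted p = 5.3e-16). HK2 was higher in TTA-1 (46.2, 47.3 and 40.1 CPM against 151, 149 and 144, log2 fold change -1.73), and HK1 was not called (log2 fold change -0.53). The glucose transporter SLC2A1 lay just under the limit (log2 fold change -0.98) and was called without TTA-1 DMSO replicate 2 (-1.07) and with the GC and length trend removed (-1.43). The lactate carriers went in opposite directions: SLC16A1 was higher in TTA-1 (129 ± 4.8 against 526 ± 70 CPM) and SLC16A7 in KHM-5M (15.7 ± 2.6 against 0.214 ± 0.094 CPM). So did the glycogen phosphorylases, PYGB being higher in KHM-5M (421 ± 7.0 against 58.2 ± 6.4 CPM, log2 fold change 2.85) and PYGL in TTA-1 (126 ± 2.9 against 429.7 ± 27 CPM, log2 fold change -1.77).

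Most mitochondrial genes were not called. Of the tricarboxylic acid cycle and glutamine genes 26 of 33 were not called, against 9092 of all 16218 genes tested. GLUL, which makes glutamine, was higher in KHM-5M (109, 99.3 and 104 CPM against 29.4, 28.6 and 29.2, log2 fold change 1.84). Nuclear oxidative phosphorylation genes had 9 of 37 (24.3%) higher in KHM-5M, near the 25.0% of all genes tested. In TTA-1 1 was higher (2.7%, against 18.9% of all genes tested), or 2 with the GC and length trend removed. UQCRB, a subunit of complex III, was higher in KHM-5M (265, 250.2 and 246 CPM against 92.5, 45.1 and 78.7, log2 fold change 1.82). The 13 mitochondrially encoded genes had 0 called higher in KHM-5M and 3 (23.1%) in TTA-1, or 3 and 1 with the GC and length trend removed. Mitochondrial reads made up 2.88% to 3.31% of counts in KHM-5M and 4.14% to 4.50% in TTA-1.

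Amino acid and one-carbon genes differed enzyme by enzyme. Of 36 tested 9 (25.0%, as over all genes tested) were higher in KHM-5M and 16 (44.4%, against 18.9%) in TTA-1. With the GC and length trend removed the counts were 5 and 16. PHGDH, the first enzyme of serine synthesis, was higher in KHM-5M (404 ± 5.4 against 188 ± 21 CPM, log2 fold change 1.10), but not past the limit after that correction (0.69). ALDH1L2, the mitochondrial formyl-tetrahydrofolate dehydrogenase, was higher in KHM-5M (39.4, 45.9 and 42.4 CPM against 2.28, 1.91 and 2.52, log2 fold change 4.24, SE 0.14, edgeR adjusted p = 7.4e-14). ASS1, argininosuccinate synthase (11.99 ± 1.6 against 64.4 ± 10 CPM, log2 fold change -2.42), and CTH, which makes cysteine (3.71 ± 0.10 against 29.1 ± 2.4 CPM, log2 fold change -2.97), were higher in TTA-1. BHMT2, a betaine-type methyltransferase, had 1 count in KHM-5M and 46.6, 43.0 and 46.9 CPM in TTA-1, a ratio of 2392-fold (95% counting interval 429 to 94522) in favour of TTA-1. Among transporters, SLC43A3 had no count in TTA-1 and 58.9, 53.9 and 55.2 CPM in KHM-5M, at least 868-fold higher, and SLC7A5, the large neutral amino acid exchanger, was higher in TTA-1 (318 ± 15 against 973 ± 64 CPM). QPRT, of de novo NAD synthesis, was measured at 104, 105 and 112 CPM in KHM-5M and 0.390, 0.591 and 0.504 CPM in TTA-1 (log2 fold change 7.74, SE 0.16, edgeR adjusted p = 3.2e-16), while KYNU, upstream in the kynurenine pathway, was higher in TTA-1 (1.77 ± 0.17 against 56.9 ± 5.5 CPM, log2 fold change -5.003).

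Sterol synthesis leaned to TTA-1, with 10 of 26 tested genes higher there and 4 in KHM-5M. HMGCS1, at the head of the mevalonate pathway, was measured at 20.2, 20.8 and 16.2 CPM in KHM-5M and 138, 164 and 158 CPM in TTA-1 (log2 fold change -3.01, SE 0.10, edgeR adjusted p = 9.7e-14). LSS, the lanosterol synthase, was higher in KHM-5M (139 ± 5.8 against 42.8 ± 5.4 CPM). Of the fatty acid genes, the desaturase SCD was not called (1159, 1151 and 1225 CPM against 1157, 1162 and 1205, log2 fold change 0.00). FABP5, a fatty acid carrier, was higher in KHM-5M (86.1, 77.7 and 73.1 CPM against 0.455, 0.197 and 0.315, log2 fold change 7.90, SE 0.21, edgeR adjusted p = 3.7e-15). PPARG, the adipogenic nuclear receptor, was higher in TTA-1 (2.65, 2.54 and 2.98 CPM against 54.9, 65.4 and 54.3, log2 fold change -4.42, SE 0.13, edgeR adjusted p = 1.1e-14), as was ACSL5, which activates fatty acids (22.8 ± 0.067 against 209.9 ± 4.7 CPM). Of the prostaglandin synthases, PTGS2 had 67 counts in KHM-5M and 1 in TTA-1 (a ratio of 59.2-fold (95% counting interval 10.3 to 2373)), and PTGES was higher in TTA-1 (8.13 ± 1.0 against 104 ± 12 CPM).

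Of the genes of iron, copper and zinc handling 7 of 21 tested were higher in KHM-5M, 7 were higher in TTA-1 and 7 were not called. TFRC, the transferrin receptor, was measured at 115, 121 and 114 CPM in KHM-5M and 1176, 1525 and 1319 CPM in TTA-1 (log2 fold change -3.52, SE 0.10, edgeR adjusted p = 7.8e-15), whereas the ferritin light chain FTL was abundant in both (log2 fold change -0.29). The metallothionein MT1E had no count in TTA-1 and 249.9, 241 and 229.9 CPM in KHM-5M, at least 3724-fold higher. MT2A was measured at 1222, 1116 and 1149 CPM in KHM-5M and 195, 208 and 176 CPM in TTA-1 (log2 fold change 2.59, SE 0.08, edgeR adjusted p = 4.3e-14). Metallothioneins are close copies, so the split among them is uncertain. The zinc importer SLC39A8 was higher in KHM-5M (24.04 ± 1.5 against 2.68 ± 0.69 CPM).

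Several genes outside these lists were among the largest differences of the well-expressed genes (a mean over 20 CPM). Of the protein-coding genes tested 24.9% were called higher in KHM-5M and 18.0% in TTA-1. Among them 305 of the KHM-5M genes had no count in TTA-1, and 83 of the TTA-1 genes had none in KHM-5M. KCNMA1, a calcium-gated potassium channel, was measured at 149, 147 and 137 CPM in KHM-5M, at least 2236-fold higher. GRAP2, an adaptor known from T cells, was measured at 72.9, 79.0 and 79.6 CPM in KHM-5M, at least 1195-fold higher. The cancer-testis genes MAGEA10 and MAGEC2 stood at a mean of 76.5 and 76.6 CPM in KHM-5M with no TTA-1 count (at least 1186-fold and at least 1186-fold higher), though MAGE genes share reads with close copies. On the other side CES1, a liver carboxylesterase, was measured at 264, 237 and 261 CPM in TTA-1, at least 4448-fold higher. OLR1, the receptor of oxidised low-density lipoprotein, was measured at 88.3, 98.7 and 91.0 CPM in TTA-1, at least 1624-fold higher. Among genes with at least 10 CPM in both lines, CPNE1, a calcium-dependent membrane binder (299 ± 12 against 18.0 ± 0.95 CPM), and DBN1, the actin-binding drebrin (454 ± 8.8 against 21.4 ± 2.7 CPM), were higher in KHM-5M. DKK1, a secreted WNT inhibitor, was higher in TTA-1 (11.6, 12.6 and 9.39 CPM against 321, 356 and 307, log2 fold change -4.87, SE 0.10, edgeR adjusted p = 3.2e-16), and its relative DKK3 in KHM-5M (191 ± 3.3 against 12.6 ± 1.5 CPM, log2 fold change 3.92).

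The 10 genes of MAPK output, which ERK signalling induces, had 6 (60.0%) higher in KHM-5M and 1 (10.0%) in TTA-1. With the GC and length trend removed 2 were higher in TTA-1. The shares over all genes tested were 25.0% and 18.9%. DUSP6, the phosphatase that turns off ERK, was measured at 34.5, 35.0 and 29.7 CPM in KHM-5M and 2.41, 2.23 and 2.96 CPM in TTA-1 (log2 fold change 3.70, SE 0.24, edgeR adjusted p = 3.8e-10). SPRY2, a feedback inhibitor, was measured at 73.3, 70.2 and 73.6 CPM in KHM-5M and 3.45, 3.94 and 3.47 CPM in TTA-1 (log2 fold change 4.32, SE 0.12, edgeR adjusted p = 6.4e-15). DUSP4, of the same family as DUSP6, was higher in TTA-1 (10.2, 9.68 and 11.4 CPM against 47.7, 38.9 and 42.1, log2 fold change -2.04). Since each genotype is 1 line, the BRAF allele and the line cannot be told apart in these values.

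Large differences also ran over neighbouring genes. Around MET on chromosome 7 all 6 tested protein-coding genes from TES to ST7 were called higher in TTA-1, a stretch chosen after the values were seen. Their log2 fold changes were -2.94 for TES, -4.75 for CAV2, -3.38 for CAV1, -5.40 for MET, -4.83 for CAPZA2 and -3.65 for ST7. CAV1, the coat protein of caveolae, was measured at 560.0, 554 and 539.5 CPM in KHM-5M and 5412, 6414 and 5366 CPM in TTA-1. The next tested protein-coding genes outside were MDFIC (-0.11) and LSM8 (0.68), neither called. Farther out on the MDFIC side 6 of the 7 tested protein-coding genes from ZNF277 to SMIM30 were called higher in TTA-1, from -1.94 for BMT2 to -4.19 for IFRD1 (38.9 ± 1.1 against 712 ± 65 CPM), and GPR85 among them was higher in KHM-5M (4.06). On chromosome 9 all 8 tested protein-coding genes from FOCAD to TUSC1, which include the inhibitors of cell-cycle kinases CDKN2A and CDKN2B, were called higher in KHM-5M, a stretch also chosen after its values were seen. CDKN2A was measured at 46.5, 45.5 and 49.6 CPM in KHM-5M and 8.19, 4.60 and 5.04 CPM in TTA-1 (log2 fold change 2.99, SE 0.15, edgeR adjusted p = 1.1e-11), and CDKN2B at 18.0, 15.3 and 17.6 and 0.130, 0.131 and 0.189 CPM (log2 fold change 6.74). MTAP, the methylthioadenosine phosphorylase between KLHL9 and CDKN2A, was at 42.5, 39.7 and 39.6 CPM in KHM-5M and 0.845, 4.01 and 1.45 CPM in TTA-1 (log2 fold change 4.27). HACD4 had no count in TTA-1 and 18.1, 19.3 and 16.0 CPM in KHM-5M (at least 275-fold higher). Outside the stretch MLLT3 was higher in KHM-5M by less (2.29), and RPS6 (-0.01) and CAAP1 (-0.49) were not called. Beyond RPS6, PLIN2, which coats lipid droplets, was higher in TTA-1 (-2.87), and ADAMTSL1, a secreted matrix protein, was higher in KHM-5M by more than most genes of the stretch (68.1 ± 2.8 against 0.150 ± 0.13 CPM, log2 fold change 8.75). The DNA of the lines was not measured, and whether copy number moves with these values was not tested.

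**Figure D4:**
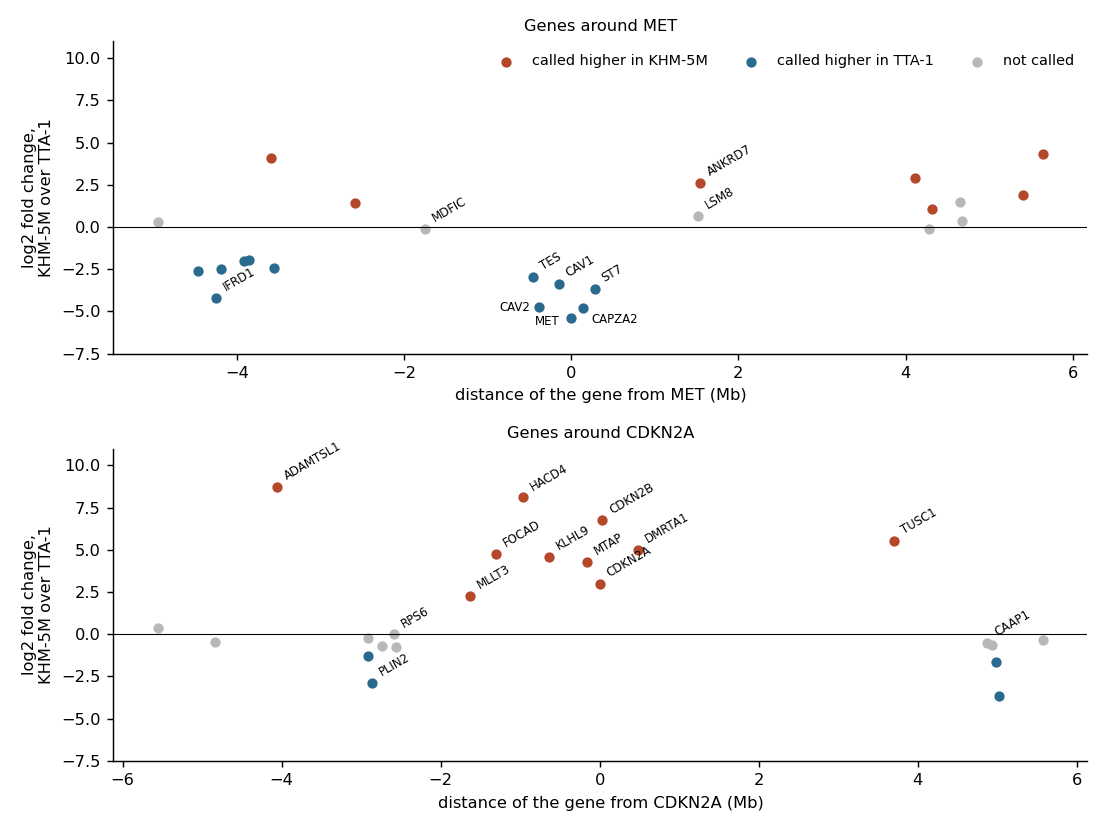
Log2 fold change, KHM-5M over TTA-1, of tested protein-coding genes by distance from MET (upper) and from CDKN2A (lower) in megabases, red where called higher in KHM-5M, blue in TTA-1 and grey where not called (genes with no count in 1 line are drawn at their bound). The 6 genes from TES to ST7 lie between -2.94 and -5.40, and the 8 genes from FOCAD to TUSC1 all lie at 2.99 or above.

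Whole chromosomes differed by smaller shifts. Relative to the median of all genes, the median log2 fold change was 0.83 on chromosome 20, where 197 of 433 tested genes were called higher in KHM-5M and 21 in TTA-1. On chromosome 22 it was 0.59, or 0.25 with the GC and length trend removed. On chromosome 3 it was -0.58, where 145 of 900 genes were higher in KHM-5M and 305 in TTA-1.

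The same comparison was made in the 6 GDC-0994 libraries, which are separate from the DMSO libraries but share the filter, the scaling and the estimate of the spread with them in 1 model. Fitted to the DMSO libraries alone, 4049 and 3031 genes were called. Of the 4057 genes called higher in KHM-5M under DMSO, 3566 (87.9%, and 79.4% of the 4491 called under GDC-0994) were called in that direction again. Of the 3069 called higher in TTA-1, 2478 (80.7%, and 67.4% of 3679) were. Under GDC-0994 27.7% and 22.7% of all genes tested were called higher in KHM-5M and in TTA-1. FN1 stood at 5499 CPM in KHM-5M and 2.41 CPM in TTA-1 under the inhibitor, and MET at 70.9 and 6234 CPM. Called in the opposite direction under GDC-0994 were 16 of the KHM-5M genes and 14 of the TTA-1 genes.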

How the data were processed

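Poly(A) RNA was sequenced in 12 libraries, 3 for each of 4 groups, and the 6 DMSO libraries are compared here. The authors deposited raw counts per gene and FPKM. Per the submitters' processing notes, the build was GRCh38 and the tools were HISAT2 2.0.5, CASAVA and featureCounts 1.5.0-p3, whose roles and order are not given. The library preparation, per the labels' protocols, does not mark strand. All 58735 gene IDs matched GENCODE 29, whose coordinates are printed. Totals of 15996718 to 17397430 counts per DMSO library set the precision, and counting intervals (95%) and the floor of 3 counts over a line's libraries, used for genes at 0, cover counting error only.

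From the counts, edgeR 4.0.16 (R 4.3.3) fitted 1 quasi-likelihood model to all 12 libraries with 4 group means (TMM scaling, filterByExpr with a minimum count of 10 and total of 15, 16218 genes, 8 residual degrees of freedom). Calls need a Benjamini-Hochberg adjusted p below 0.05 and a 2-fold difference. On simulated data the fit called 92% of genes changed by 1.5 and 98% of those changed by 3 on the log2 scale in this comparison. The simulation changed a small share of genes, balanced in direction, with the same spread in all libraries. In the data 43.9% of genes were called and the TTA-1 DMSO libraries lay farther apart, so these rates do not describe them. Alternatives were other scalings, filters and call rules, limma 3.58.1 on the deposited FPKM, the DESeq2 1.42.0 Wald test, leaving out libraries, and, added after seeing the data, a natural spline (4 degrees of freedom) on GC and length removed from each library. The labels do not say whether replicate numbers pair the samples, and they were not treated as pairs. Same-numbered deviations correlated at -0.02, 0.16 and 0.06, within the -0.179 to 0.175 of unlike-numbered ones, so these correlations cannot decide it.

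Members and the 42 lists were chosen with earlier results of these data known. Named genes are called ones with the largest changes each way: 12 protein-coding genes whose higher line averaged 20 CPM or more and 8 that averaged 10 CPM or more in both lines (with no overlap between the lines), 8 transcription factors (10 CPM or more), and up to 4 members of a list (5 CPM or more). A set of reference genes was also named. CLDN4, GATA6, LAMA5, CDH5, GCLC, GCLM, TXNRD1, SRXN1, HMOX1, NFE2L2, CAV1, TES, ST7, MDFIC, LSM8, MLLT3, RPS6, CAAP1, ADAMTSL1, PLIN2, BMT2, GPR85, ZNF277, SMIM30, SFN and PERP were added after their values were seen. Some genes of the lists are counted but not reported by name here.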

Additional observations from a re-analysis of the deposited data

Results flagged for a closer look

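The difference between the lines itself differed between GDC-0994 and DMSO for 4527 genes (27.9% of those tested, edgeR adjusted p of the interaction below 0.05), of which 1739 changed by at least 2-fold. The protein-coding genes that reached 5 CPM on average in either line under DMSO and were called in opposite directions under the treatments are given here by the interaction, the log2 line difference under GDC-0994 minus that under DMSO. ETS factor ETV4 gave -4.01 (from 2.35 under DMSO to -1.67), and the AP-1 factor FOSL1 gave -2.46 (from 1.31 to -1.15). EGR1, an immediate early factor, gave 4.37 (SE 0.74, from -2.23 to 2.14), but under GDC-0994 it was nearly undetected in both lines (mean 0.222 CPM in KHM-5M and 0.044 CPM in TTA-1), so its direction there rests on very few counts. Genes of cell division or DNA replication gave -2.61 for the kinesin KIFC1, -3.33 for the kinetochore gene SPC24 and -2.23 for the helicase PIF1. The values were -2.69 for TCF19, -2.66 for C21orf58 and -2.67 for TEDC2. The lipolysis inhibitor G0S2 gave -2.85 and the secreted peptide APLN -2.92. Periplakin (PPL) gave 3.95, chemerin (RARRES2) 3.15 and SSC4D 2.69. These genes were chosen by this pattern, so the values are descriptions.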

How the results depend on the processing

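No called gene of the text changed direction under any alternative run. Many were chosen for large differences and the alternatives used the same libraries, so this says little about other genes. With the GC and length trend removed, 5 of the 236 tested genes of the text lost their call. Another 5, given as not called, gained one, SLC2A1 among them. Without TTA-1 DMSO replicate 2, 2 genes gained a call. The side with more called members turned under at least 1 alternative in 10 of the 42 gene lists. With the GC and length trend removed it turned for basement membrane genes (to 7 higher in KHM-5M and 9 in TTA-1), antigen presentation (4 and 5), glycolysis (7 and 10), receptor tyrosine kinases (7 and 8), transporters (18 and 19) and the mitochondrially encoded genes (3 and 1). On the log2(FPKM + 1) scale it turned for cytokine receptors (4 and 9), receptor tyrosine kinases (6 and 7), transporters (8 and 9) and squamous markers (1 and 0). The tricarboxylic acid list turned with library totals (4 and 3) and the pentose phosphate list with a minimum log2 fold change of 2 (1 and 0). The main counts of 4057 and 3069 genes (higher in KHM-5M and in TTA-1) were 2517 and 2030 with a stricter filter, 2103 and 1717 with limma on log2(FPKM + 1), 2110 and 1716 with that scale and no filter, 6430 and 5975 with no minimum fold, and 2430 and 1206 with a minimum log2 fold change of 2. The main test is against no difference, with the 2-fold limit applied afterwards. Tested against a 2-fold difference itself (edgeR's glmTreat), 3319 and 2278 genes were called, and the cytokine receptor list turned (11 and 12). Leaving out 1 library gave 3892 to 4167 and 2905 to 3142 genes. The replicate block gave 4038 and 2985, close to the fit without it. Other scalings shifted the all-gene median by at most 0.10, to 0.13 with library totals, where 4329 and 2776 genes were called. The genes called again under GDC-0994 were 2236 and 1635 with the stricter filter, which tests fewer genes, and 3424 to 3642 and 2384 to 2477 without 1 library. The median of chromosome 20 was 0.79 to 0.87 without 1 library, 0.80 without TTA-1 DMSO replicates 1 and 2, 0.70 with log2(FPKM + 1), 0.13 with that scale unfiltered, and 0.72 with the GC and length trend removed. That of chromosome 22 was 0.39 with no filter, 0.68 with the stricter filter, 0.025 with log2(FPKM + 1) unfiltered and 0.25 with the GC and length trend removed. That of chromosome 3 was -0.13 with no filter, -0.45 with log2(FPKM + 1), -0.017 with that scale unfiltered and -0.48 with the GC and length trend removed. The cause of these changes was not tested.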

Other observations

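Lists not described above showed further differences. Of 23 tested pentose phosphate, glycogen and hexosamine genes, 9 were called higher in TTA-1 and 2 in KHM-5M (median log2 fold change -0.55), or 9 and 1 with the GC and length trend removed. PGM1, which joins glycolysis and glycogen, was measured at 86.0, 87.5 and 88.1 CPM in KHM-5M and 276, 254 and 266 CPM in TTA-1 (log2 fold change -1.60, SE 0.07, edgeR adjusted p = 2.2e-12). The hexosamine enzymes GFPT2 (27.0 ± 2.3 against 90.2 ± 5.1 CPM, log2 fold change -1.74) and GNPNAT1 (31.97 ± 4.9 against 118 ± 12 CPM, log2 fold change -1.89) were higher in TTA-1 as well. The background shares over all genes tested were 18.9% for TTA-1 and 25.0% for KHM-5M.

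Of 28 tested aldehyde, retinoid, nicotinamide and tryptophan enzymes, 11 were called higher in each line. ALDH3A2, a fatty aldehyde dehydrogenase, was measured at 21.2, 20.8 and 21.5 CPM in KHM-5M and 168, 196 and 163 CPM in TTA-1 (log2 fold change -3.06, SE 0.09, edgeR adjusted p = 1.3e-14). AOX1, an aldehyde oxidase, was measured at 196, 192 and 183 CPM in KHM-5M and 24.9, 23.3 and 22.1 CPM in TTA-1 (log2 fold change 3.02, SE 0.09, edgeR adjusted p = 2e-14). The retinoid carrier CRABP2 (30.4 ± 2.0 against 3.02 ± 1.1 CPM) and the nicotinamide methyltransferase NNMT (56.6 ± 0.51 against 10.1 ± 1.3 CPM) were higher in KHM-5M, and CYP1B1, a cytochrome of steroids and xenobiotics (1.01 ± 0.42 against 29.05 ± 5.4 CPM), in TTA-1. Of 23 tested tumour suppressors and neighbours of CDKN2A, 12 were called higher in KHM-5M and 2 in TTA-1 (median log2 fold change 1.04). Against that direction, NF2, the tumour suppressor merlin, was higher in TTA-1 (24.1 ± 1.4 against 57.5 ± 7.9 CPM, log2 fold change -1.26).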
